A study of Mus musculus with 2 samples.

Results

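Chemokine ligand genes encode small secreted proteins that guide migrating leukocytes. The 37 genes described here are the mouse CCL, CXCL, XCL and CX3CL ligands, matched by gene symbol, among 55371 genes in the count table. RNA was sequenced from Langerhans cells, dendritic-like cells that survey the epidermis, sorted from mouse ears as CD207+ and MHC II+. Both libraries belonged to a single group with genotype HTR2A-/-, a knockout of the serotonin 2A receptor gene. Both had received Imiquimod and a-CD40L for 24 hours after sorting. Imiquimod is a Toll-like receptor 7 agonist, and the labels do not say whether a-CD40L is a CD40 agonist or an antibody to its ligand. Strain, age, sex, the kind of knockout allele and the number of animals behind each library are not stated in the labels. The series title speaks of monocyte-derived Langerhans cells, whereas the sample labels describe cells sorted from ears. No wild-type or untreated library was analysed here, so every value is a level in stimulated knockout cells or a difference between 2 libraries of 1 group, with no test of genotype or treatment and no p-value.

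Chemokines fold around conserved cysteines, whose spacing near the amino terminus gives the CC, CXC, CX3C and C classes their names. They act on G protein-coupled receptors, and ligands that share a receptor tend to draw the same cells. Epidermal Langerhans cells leave the skin after activation by using the receptor CCR7, and activated dendritic cells are known sources of the CCR4 ligands Ccl17 and Ccl22, which attract T cells. Keratinocytes are known sources of the neutrophil attractant Cxcl1, of Ccl20 and of Ccl27a.

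The cysteine spacing is shown in the coding sequence of ligands of CXCR2, CXCR6, CCR4 and CCR6, of Ccl4 and of the CX3C ligand Cx3cl1, because it separates the classes described afterwards. Coordinates are GRCm38 with GENCODE M21 gene models, sequences run 5′ to 3′ on the gene's own strand, and capitals mark the cysteine codons. An in-frame Glu-Leu-Arg triplet directly before the CXC motif, a mark of ligands that act on neutrophils, was found in 6 members, Cxcl1, Cxcl2, Cxcl3, Cxcl5, Cxcl15 and Ppbp. It fills the 9 bases before the first capital in the Cxcl1, Cxcl2 and Cxcl3 sequences and is not present before the CXC motif of Cxcl16.
Cxcl1, chr5:90891487-90891513, plus strand: gagctgcgcTGTcagTGCctgcagacc
Cxcl2, chr5:90904133-90904159, plus strand: gaactgcgcTGTcaaTGCctgaagacc
Cxcl3, chr5:90786359-90786385, plus strand: gagctgcgcTGTcagTGCctgaacacc
Cxcl16, chr11:70459118-70459144, minus strand: gctggaagtTGTtctTGTgatcgtacc
Ccl22, chr8:94746925-94746948, plus strand: gacagtatcTGCTGCcaggactac
Ccl17, chr8:94811203-94811226, plus strand: ggccgagagTGCTGCctggattac
Ccl4, chr11:83663473-83663496, plus strand: cccacttccTGCTGTttctcttac
Ccl20, chr1:83117804-83117827, plus strand: aactacgacTGTTGCctctcgtac
Cx3cl1, chr8:94778042-94778074, plus strand: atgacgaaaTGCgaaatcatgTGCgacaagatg

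Promoter sequence was compared because imiquimod and CD40 signalling are known to act through NF-κB, and RefSeq (GRCm38.p6) gave the 250 bases before the start site for 27 of the 37 members. Letters were searched on both strands. The NF-κB part site GGNNTTTCC was found in 7 of 27 members and in 4.93% of 32851 promoters of all genes. These 7 members were Ccl20, Ccl9, Cxcl1, Cxcl2, Cxcl3, Cxcl9 and Cxcl10. The interferon response pattern TTCNNTTTC was found in 6 of 27 members and in 7.13% of all promoters, the AP-1 pattern TGANTCA in 4 members and 6.75%, and TATAAA in 10 members and 12.4%. A match is a run of letters and not a bound site. Of the 27 members, 17 were above background in both libraries as defined below, and 6 of these held the NF-κB pattern, against 1 of the other 10. These 6 include Cxcl1, Cxcl2 and Cxcl3, which lie near each other, and a link of pattern and level was not tested. Members without a promoter sequence were Ccl2, Ccl4, Ccl5, Ccl7, Ccl11, Ccl24, Cxcl5, Cxcl11, Cxcl16 and Cxcl17. A member counted if any of its starts matched (30 starts for 27 members), whereas the share over all genes counted each promoter.

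The CXCR2 ligands Cxcl1, Cxcl2 and Cxcl3 share the same 9 letters, GGAATTTCC, at 70 to 62, 96 to 88 and 72 to 64 bases before their RefSeq starts. Cxcl10, a CXCR3 ligand, holds the same 9 letters on the reverse strand, written GGAAATTCC in its sequence, 158 to 150 bases before its start. Cxcl2 carried a further match, GGCTTTTCC, 77 to 69 bases before its start. So did Cxcl1, with GGAAACACC from the reverse strand 89 to 81 bases before its start, and Cxcl9 held 2 matches. Ccl20 carried the pattern on the reverse strand 80 to 72 bases before its start, and Cxcl10 held the NF-κB, interferon and AP-1 patterns together. Ccl22 held none of these 3 patterns, although it was the highest ligand in library 1, so its sequence is shown beside the others. Each line gives 120 bases that end just before the more upstream of the RefSeq and GENCODE starts, except Cxcl10 with all 250 bases. Capitals mark matches to the NF-κB, interferon and AP-1 patterns.
Cxcl1, chr5:90891121-90891240, plus strand: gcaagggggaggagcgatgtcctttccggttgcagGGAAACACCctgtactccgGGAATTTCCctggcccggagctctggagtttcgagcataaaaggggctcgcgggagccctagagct
Cxcl2, chr5:90903751-90903870, plus strand: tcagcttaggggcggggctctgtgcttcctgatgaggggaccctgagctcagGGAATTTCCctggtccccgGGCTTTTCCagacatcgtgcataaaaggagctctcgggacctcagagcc
Cxcl3, chr5:90785981-90786100, plus strand: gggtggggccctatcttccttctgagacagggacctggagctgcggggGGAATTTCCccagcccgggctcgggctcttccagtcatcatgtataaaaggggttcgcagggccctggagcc
Ccl20, chr1:83116646-83116765, plus strand: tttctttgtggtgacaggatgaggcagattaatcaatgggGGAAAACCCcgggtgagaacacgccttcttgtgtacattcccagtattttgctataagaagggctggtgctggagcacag
Cxcl10, chr5:92348890-92349139, minus strand: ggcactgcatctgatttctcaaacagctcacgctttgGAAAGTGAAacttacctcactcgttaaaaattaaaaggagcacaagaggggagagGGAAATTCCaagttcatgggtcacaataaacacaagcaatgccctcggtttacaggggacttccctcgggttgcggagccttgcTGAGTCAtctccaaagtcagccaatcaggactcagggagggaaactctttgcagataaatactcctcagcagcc
Ccl22, chr8:94745470-94745589, plus strand: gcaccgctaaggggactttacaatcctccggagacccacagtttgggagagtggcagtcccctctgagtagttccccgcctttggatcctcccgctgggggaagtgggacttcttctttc

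Library 1 held 69925160 counts and library 2 held 42264685. The labels do not say whether the samples came from separate animals, so the spread between them may be technical, and the intervals given cover counting error only. Levels are CPM, counts scaled to a common library total, and were divided by the exon length in kb where genes are compared. A gene was taken as above background where its CPM per kb exceeded the 95th percentile of 1134 protein-coding olfactory receptor genes. The thresholds were 0.761 CPM per kb in library 1 and 1.58 in library 2. The targeted gene Htr2a had 1.10 and 2.77 CPM and lay within that background in both libraries, at the 44.4th and 33.3rd percentile of the olfactory receptor genes. Cd207, the gene of the sorted marker, had 1125 and 1052 CPM, and 5 of 5 Langerhans cell markers were above background in both libraries. Markers of other cells and of dendritic cell maturation were present too. Of 14 keratinocyte markers 13 were above background in both, and the list summed to 4834 CPM in library 1 and 16928 in library 2, 3.50 times higher in library 2 and with 13 of 14 genes higher there, Krt14 at 1315 and 4806 CPM. Of 12 mature dendritic cell markers 9 were above background in both, with sums of 2911 and 979.9 CPM, 2.97 times higher in library 1, where 11 of the 12 were higher. The 5 Langerhans cell markers summed to 15152 and 8208 CPM, with 3 lower and 2 higher in library 2 by CPM. Of the 2 higher, Epcam (155 and 178 CPM) was lower in library 2 under the TMM scaling described below, at a log2 ratio of -0.30. Above background in both libraries were 0 of 8 fibroblast markers (5 in library 1), 1 of 7 endothelial markers (4 in library 1) and 1 of 6 mast cell markers (2 in library 1, with Mcpt4 at 0 there). These lists summed to 120 and 63.6, 87.5 and 51.5, and 29.5 and 23.6 CPM. In bulk RNA, fewer cells of a type and less RNA per cell cannot be told apart. Nor can marker RNA made by the sorted cells be told from that of other cells.

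Chemokine ligand transcripts made up 0.302% of all counts in library 1 and 0.227% in library 2, and a few genes held a large part of them. Cxcl16, Cxcl2 and Ccl22 together took 76.0% of the ligand counts in library 1 (75.9 to 76.2, exact binomial 95% interval) and 48.9% in library 2 (48.6 to 49.2), a mean of 62.5% ± 19.2 (SD, n = 2). Of the 37 members, 22 were above background in both libraries (59.5%), as were 47.4% of 21938 protein-coding genes. The CC, CXC, CX3C and C classes were all represented among the 22. Taken singly, library 1 put 26 members above background and library 2 put 24. Of these, 4 passed in library 1 only and 2 in library 2 only. Shares of all protein-coding genes for each single library are not given here, so these counts have no such comparison.

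**Figure D1:**
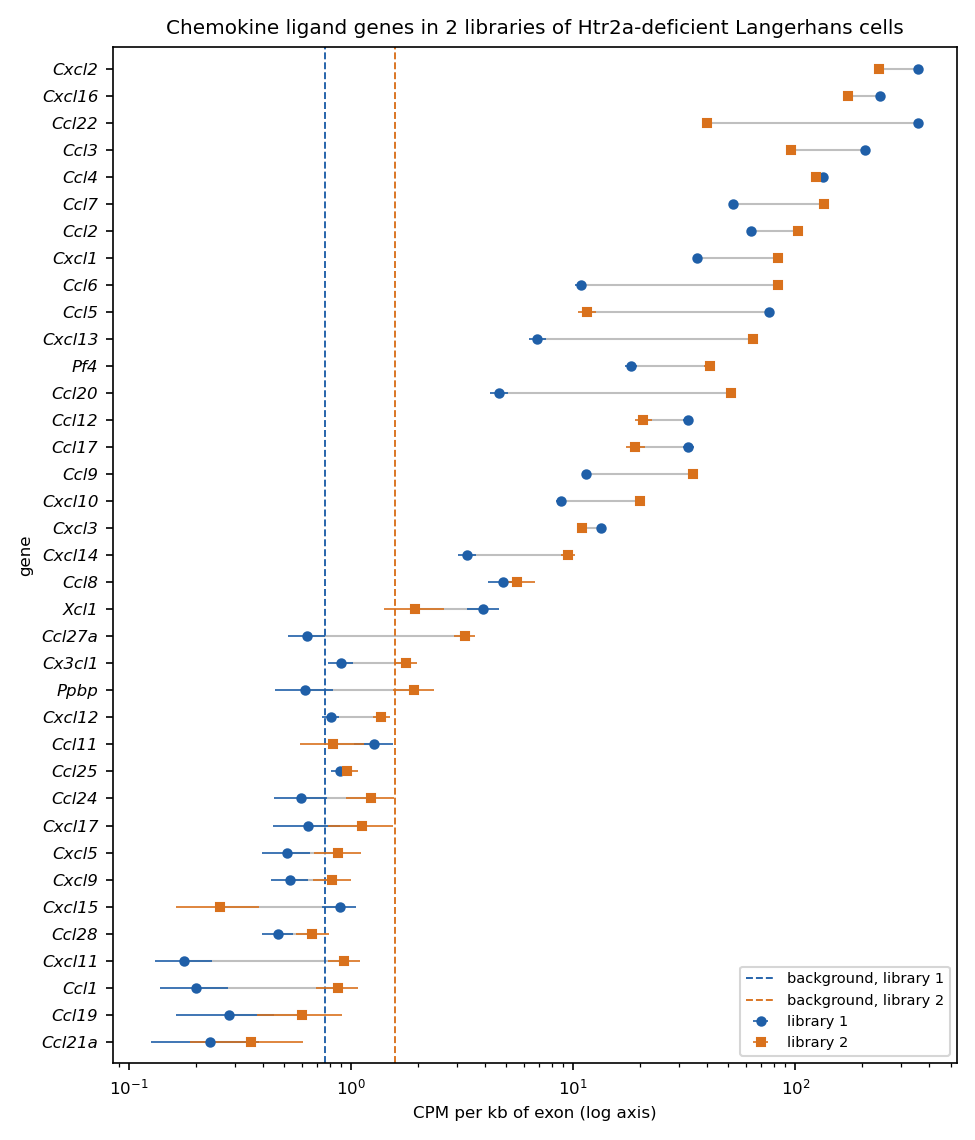
Level of each chemokine ligand gene in CPM per kb of exon (log axis), library 1 as circles and library 2 as squares, with exact Poisson 95% intervals as bars and the olfactory receptor background of each library as dashed lines. Cxcl2, Cxcl16 and Ccl22 lead by mean level, and Ccl22, Ccl5, Ccl6, Cxcl13 and Ccl20 lie far apart between the libraries.

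By mean CPM per kb the order of the 22 began Cxcl2, Cxcl16, Ccl22, Ccl3, Ccl4, Ccl7, Ccl2, Cxcl1, Ccl6 and Ccl5. It went on with Cxcl13, Pf4, Ccl20, Ccl12, Ccl17, Ccl9, Cxcl10, Cxcl3, Cxcl14, Ccl8, Xcl1 and Cx3cl1. The order is coarse: in 18 of 21 neighbouring pairs the ranges of the 2 libraries overlapped. The exceptions were Cxcl3 over Cxcl14, Ccl8 over Xcl1 and Xcl1 over Cx3cl1. Among all 231 pairs of the 22 genes, 175 stood in the same order in both libraries.

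Libraries were compared by log2 ratios, library 2 over library 1, scaled by TMM with a prior count of 1. With total counts as the scale every such ratio is higher by about 0.50, and the median over all genes moves from 0.15 to 0.65. Of the 37 members, 34 reached 1 CPM in at least 1 library. Ccl19, Ccl21a and Cxcl17 did not, and 7 of the 34 passed through 1 library alone (2 through library 1, 5 through library 2) and so had to differ. At least 2-fold lower in library 2 were 9 of 34 members (26.5%), with 12.6% of all 30351 genes. At least 2-fold higher were 9 of 34 (26.5%), close to the 24.5% of all genes. Above background in both libraries were 7 of the 9 lower and 5 of the 9 higher members. Ccl11 and Cxcl15 among the lower, and Ccl1, Ccl27a, Cxcl11 and Ppbp among the higher, were not. The median of the olfactory receptor genes was itself higher in library 2, at 0.645 against 0.221 CPM per kb. The median log2 ratio was 0.23 over these members and 0.15 over all genes. On the scale of total counts 5 members were lower and 14 higher, with 5.47% of all genes lower and 38.6% higher, so the split between higher and lower members depends on the scaling. Of the 34, Ccl8 and Ccl25 changed sign between the TMM and total count scales.

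**Figure D2:**
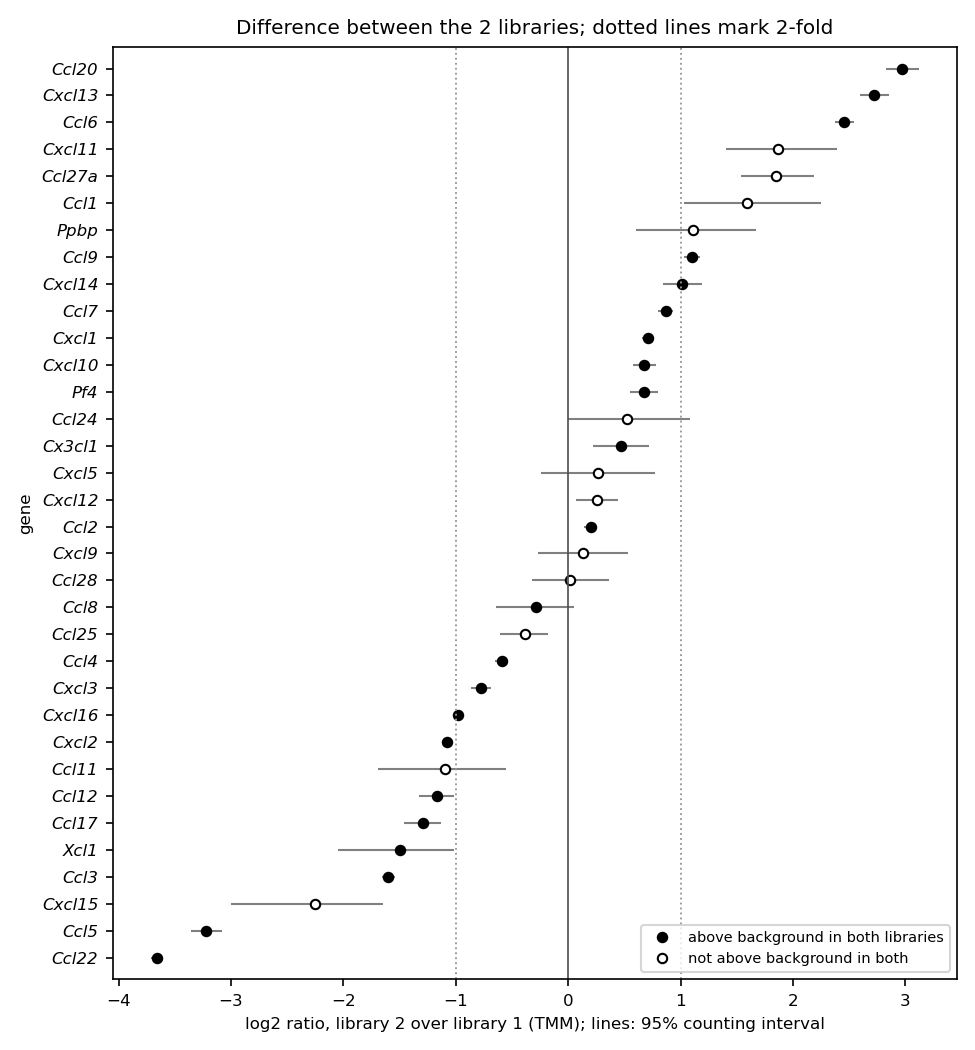
Log2 ratio of library 2 over library 1 after TMM scaling for the 34 ligand genes that reached 1 CPM in either library, with exact binomial 95% counting intervals. Filled points are above background in both libraries, and the dotted lines mark 2-fold. Ccl22 and Ccl5 lie lowest and Ccl20, Cxcl13 and Ccl6 highest.

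Both CCR4 ligands were lower in library 2 under TMM, Ccl22 far more than Ccl17. Ccl22 (ENSMUSG00000031779, chr8:94745590-94751699, plus strand) attracts CCR4-bearing T cells and had 57920 counts in library 1 and 3914 in library 2. This was 828.3 CPM against 92.6 CPM, 460 ± 520 (SD, n = 2), and its rank among the members per kb was 1 in library 1 and 12 in library 2. Its log2 ratio was -3.66 (-3.71 to -3.62), the lowest of the 34 members under TMM. Ccl17, the other CCR4 ligand and a chromosomal neighbour, had 17.0 and 9.77 CPM with a log2 ratio of -1.29. Per kb, Ccl17 stood at 0.0926 times the level of Ccl22 in library 1 (0.0874 to 0.0981) and at 0.477 times in library 2, so the pair did not move in proportion. CCR4 ligands held 28.0% of the ligand counts in library 1 and 4.51% in library 2. The mature dendritic cell markers, which sum to 2.97 times more in library 1, move the same way, and their part in the Ccl22 difference was not tested.

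CXCR2 ligands, which recruit neutrophils, held similar shares of the ligand counts, 28.3% in library 1 and 30.5% in library 2. Cxcl2 (ENSMUSG00000058427) made up most of this, with 736 and 494.2 CPM, 615 ± 171 (SD, n = 2), and a log2 ratio of -1.08 (-1.10 to -1.05). Cxcl1 had 67.9 and 157 CPM with a log2 ratio of 0.71, the opposite direction to Cxcl2 under TMM and total counts. Per kb, Cxcl1 reached 0.102 times Cxcl2 in library 1 (0.0988 to 0.105) and 0.350 times in library 2 (0.341 to 0.360). Cxcl3 had 46.5 and 38.5 CPM and its ratio to Cxcl2 varied less, with Cxcl2 26.8 times higher per kb in library 1 and 21.7 times in library 2. Cxcl1, Cxcl2 and Cxcl3, whose promoters share a GGAATTTCC run with that of Cxcl10, differed in how far they moved between the libraries. Ppbp, a platelet basic protein gene, had 0.672 and 2.08 CPM and passed background in library 2 alone, and Cxcl5 with 0.958 and 1.63 CPM was within background in both. Of 8 neutrophil markers 7 were above background in both libraries, and the list summed to 343 and 631 CPM. It went both ways: S100a8 (63.6 and 165 CPM) and S100a9 (182 and 425 CPM) were higher in library 2, and the list without them summed to 97.9 and 39.7 CPM, with Csf3r at 56.3 and 15.2. The summed keratinocyte markers are 3.50 times higher in library 2. Their part in the Cxcl1 level was not tested.

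Cxcl16 encodes a membrane-anchored ligand of CXCR6, which also acts as a scavenger receptor. It was the steadiest of the 3 leading genes in its share, 24.2% of ligand counts in library 1 and 23.1% in library 2. Its level was 729 and 524 CPM, 626 ± 145 (SD, n = 2), with a log2 ratio of -0.98. Cxcl16 (chr11:70453983-70459984, minus strand) shares 552 of its 3021 exonic bases with Zmynd15 on the opposite strand, which had 11735 and 2919 counts. Whether counting used strand is not given in the sources used here, and reads in the shared stretch cannot be assigned.

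The inflammatory CC ligands Ccl3, Ccl4, Ccl5, Ccl6, Ccl9, Ccl11 and Ccl24, which attract monocytes, T cells and eosinophils, summed to similar levels, 375 and 426 CPM, while single members diverged in both directions. Ccl3 had 158 and 73.6 CPM and Ccl4, its neighbour and close relative, 87.5 and 82.1 CPM. Per kb, Ccl3 stood at 1.55 times Ccl4 in library 1 (1.504 to 1.601) and at 0.772 times in library 2 (0.735 to 0.810), so their order reversed. Ccl5, known as RANTES and made by T cells among others, had 73.1 and 11.1 CPM, a log2 ratio of -3.22 (-3.36 to -3.08). Ccl6, a CC chemokine found in rodents, went the other way with 19.4 and 151 CPM and a log2 ratio of 2.46 (2.37 to 2.54). Ccl5 was 7.05 times Ccl6 per kb in library 1 and 0.138 times in library 2. Ccl9 had 34.8 and 105.9 CPM with a log2 ratio of 1.10. Of 10 T cell markers, 8 were above background in library 1 and 6 in both, and the list summed to 209 and 138 CPM. By CPM the list went both ways, with 5 genes lower and 5 higher in library 2. Of the 6 above background in both, Cd3e (42.4 and 12.4), Cd3g, Trdc (42.5 and 15.4) and Lck were lower. Thy1 (30.9 and 68.3) and Cd4 were higher by CPM. Cd28 and Cd8a, also higher by CPM, lay within background in both libraries. Under TMM, Thy1 and Cd28 stayed higher, with log2 ratios of 0.64 and 1.34. Cd4, Cd8a and Trac, higher by CPM, were then at -0.15, -0.19 and -0.005, with counting intervals that span no change. The 12 monocyte and macrophage markers, all above background in library 1 and 10 in both, summed to 2550 and 1235 CPM. The part of the cells that express these markers in the Ccl5 difference was not tested. Ccl11, an eosinophil attractant, had 1.37 and 0.899 CPM and passed background in library 1 alone, and Ccl24 with 0.772 and 1.59 CPM did so in neither.

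All 4 ligands grouped here under CCR2, a receptor on monocytes, were above background in both libraries. Together they summed to 134 and 239 CPM. Ccl2 had 71.7 and 117 CPM, 94.1 ± 31.7 (SD, n = 2), with a log2 ratio of 0.20, and Ccl7 had 41.8 and 108 CPM with a log2 ratio of 0.87. Per kb, Ccl2 stood at 1.21 times Ccl7 in library 1 (1.15 to 1.26) and at 0.759 times in library 2 (0.729 to 0.791). Their order reversed beyond counting error. Ccl12 had 17.7 and 11.1 CPM with a log2 ratio of -1.17. Ccl8 was the rarest of the 4 with 2.47 and 2.86 CPM, and its counting interval spans no change (-0.64 to 0.05).

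**Figure D3:**
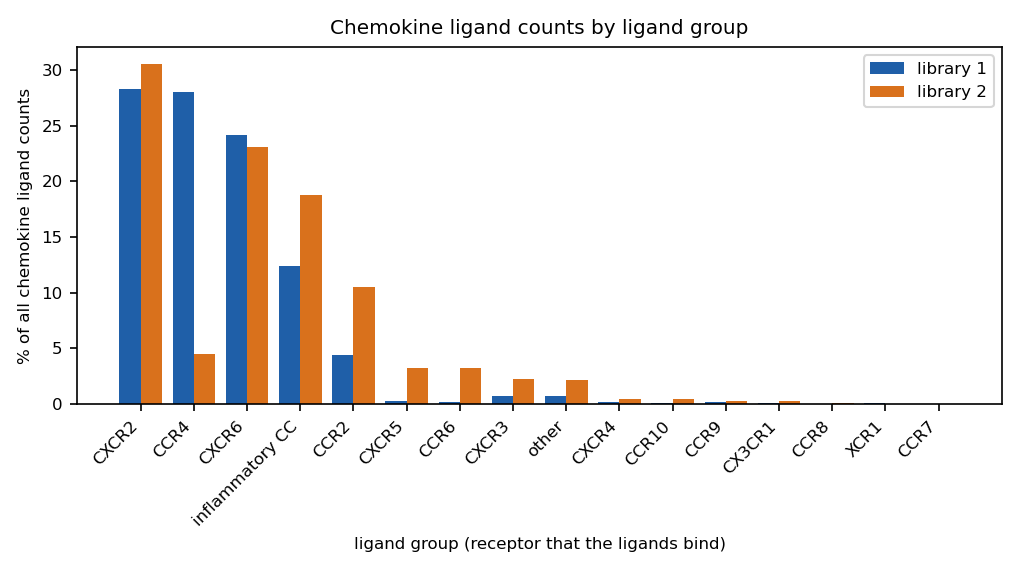
Share of all chemokine ligand counts (percent) held by each group of ligands, named by receptor or as inflammatory CC, in library 1 and library 2, without error bars because each bar is a single library. CXCR2 and CXCR6 ligands hold similar shares in both, CCR4 ligands hold 28.0% in library 1 and 4.51% in library 2, and CCR2, CCR6 and CXCR5 ligands take larger shares in library 2.

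Ccl20 and Cxcl13 were the members with the highest log2 ratios. Ccl20 (ENSMUSG00000026166), the CCR6 ligand that draws IL-17-producing T cells, had 461 and 3098 counts. These are 6.59 and 73.3 CPM, 39.9 ± 47.2 (SD, n = 2), and a log2 ratio of 2.97 (2.83 to 3.12). Cxcl13, the CXCR5 ligand that organises B cell follicles, had 7.94 and 74.2 CPM with a log2 ratio of 2.72 (2.59 to 2.86). Both genes were above background in each library, and their direction was the same under TMM, total counts, DESeq2 size factors and scaling to Cd207. Keratinocyte markers are 3.50 times higher in library 2 and Krt5 had 904 and 3059 CPM. The part of keratinocyte RNA in the Ccl20 and Cxcl13 values was not tested.

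Among the CXCR3 ligands, which interferon induces and which attract activated T cells, Cxcl10 alone was above background. Its values were 19.8 and 44.8 CPM, 32.3 ± 17.7 (SD, n = 2), with a log2 ratio of 0.68. Cxcl9 had 1.60 and 2.48 CPM and lay within background in both libraries. Cxcl11, annotated in this build as a polymorphic pseudogene, had 0.672 and 3.53 CPM and was also within background. Cxcl10 shares 133 of its 2252 exonic bases with Art3 on the other strand (320 and 195 counts), and Cxcl11 shares 1582 of 3794 with Gm2673 (20 and 71 counts).

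The remaining members above background in both libraries were Cxcl14, Pf4, Cx3cl1 and Xcl1. Cxcl14, a skin chemokine without an agreed receptor, had 6.08 and 17.4 CPM with a log2 ratio of 1.01 (0.84 to 1.19), and Pf4, platelet factor 4, had 13.1 and 29.6 CPM. All 5 platelet markers together reached 7.37 and 12.6 CPM, with none above background in both libraries. Cx3cl1, the membrane-bound CX3CR1 ligand fractalkine, had 3.52 and 6.91 CPM and was the lowest per kb of the members above background in both. Xcl1, the ligand of XCR1 on cross-presenting dendritic cells, had 2.06 and 1.02 CPM with a log2 ratio of -1.50 (-2.05 to -1.02). It shares 98 of 523 exonic bases with Gm20743, which had 279 and 215 counts, more than Xcl1 itself at 144 and 43.

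Passing background in library 1 alone were Cxcl12, Ccl25, Cxcl15 and Ccl11. Cxcl12, the CXCR4 ligand of stromal cells, had 6.61 and 11.2 CPM, higher in library 2, where the background was higher as well. Ccl25, a CCR9 ligand of thymus and gut, had 6.61 and 7.15 CPM, and 204 of its 7445 exonic bases overlap Elavl1 on the other strand (5771 and 3855 counts). Cxcl15, a lung chemokine, had 1.89 and 0.544 CPM from 132 and 23 counts, with a log2 ratio of -2.25 (-3.00 to -1.65). Ccl27a, a keratinocyte ligand of CCR10, had 1.502 and 7.713 CPM and passed in library 2 alone with Ppbp. Its near copies Ccl27 (206 and 315 counts, summed over 2 rows) and Ccl27b (50 and 115) were above background in both libraries. They had 6.36 and 16.1, and 1.68 and 6.40 CPM per kb, against 0.632 and 3.24 for Ccl27a. For Ccl27 the counts of 2 rows were divided by the exon length of a single row, which raises its value. Gm13306 (52 and 109) passed in library 2 alone. These copies set a limit, since 45% of the 50-base stretches of Ccl27a occur in other genes. The 105 and 326 counts of Ccl27a depend on how such reads were assigned.

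The CCR7 ligands Ccl19 and Ccl21a, which lead dendritic cells into lymph nodes, were within background. Ccl19 had 17 and 22 counts and Ccl21a 14 and 13, each summed over a chromosome row and a scaffold row. Of their 50-base stretches, 52.0% and 71.6% occur in other genes, so reads may have been split among copies such as Ccl21b (27 and 34 counts). Ccl21b, summed over 3 rows and outside the members, was above background in both libraries at 0.961 and 2.00 CPM per kb. This value divides the counts of all 3 rows by the exon length of a single row, 402 bases. Whether any row passes by itself was not examined. The remaining members within background in both libraries were Ccl1, Ccl24, Ccl28, Cxcl5, Cxcl9, Cxcl11 and Cxcl17, from 0.472 to 2.26 CPM in library 1 and from 0.852 to 3.53 CPM in library 2. Cxcl2 and Cxcl3 also share sequence, in 5.84% and 4.24% of their 50-base stretches. Outside the 37 members, Ccl26 had 0 counts in library 1, which allows up to 0.0429 CPM, and 20 in library 2.

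Members that are neighbours on a chromosome differed between the libraries in both directions. With gaps of up to 300 kb, 26 of the 37 members fell into 6 neighbourhoods. On chr11:83525778-83664683, log2 ratios ran in chromosomal order from -3.22 for Ccl5 through 1.10 for Ccl9, 2.46 for Ccl6 and -1.60 for Ccl3 to -0.59 for Ccl4. On chr5:90759360-90905938, the neutrophil ligands Cxcl1 and Cxcl2 lay side by side with 0.71 and -1.08. On chr8:94745590-94812036, Cx3cl1 at 0.47 lay between Ccl22 at -3.66 and Ccl17 at -1.29. On chr11:82035571-82305690, Ccl2 and Ccl7 were at 0.20 and 0.87 and the next genes, Ccl11 and Ccl12, at -1.09 and -1.17.

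**Figure D4:**
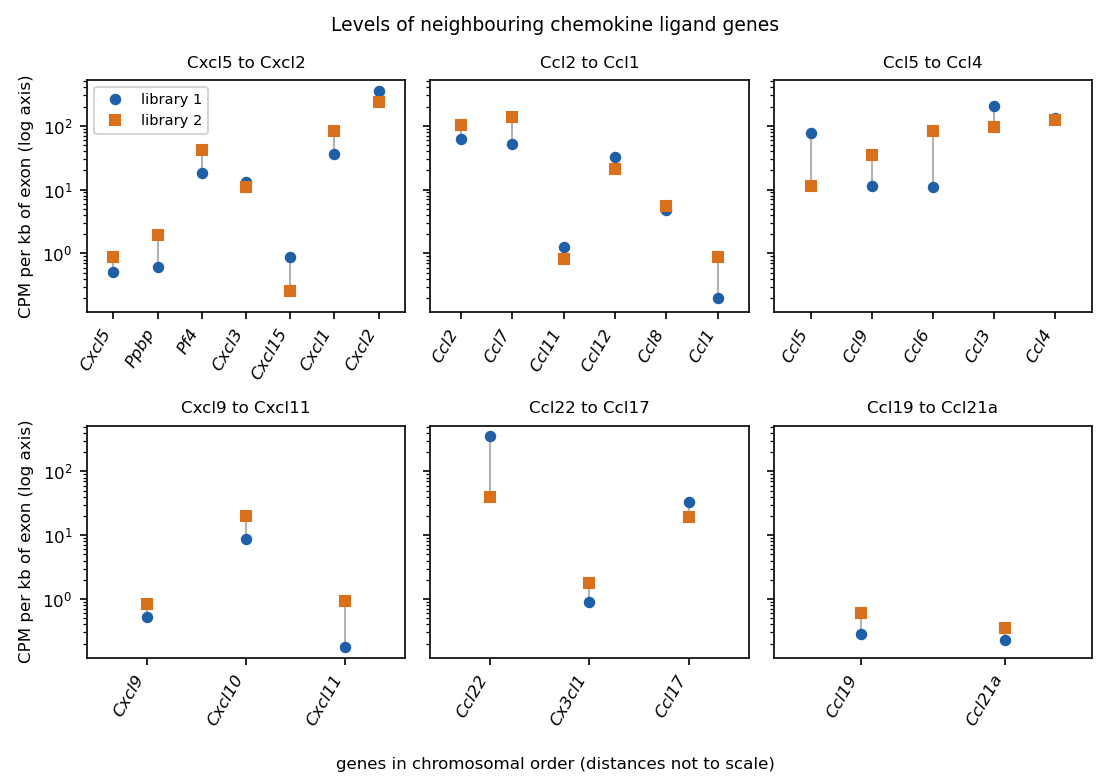
Level of each member of the 6 chromosomal neighbourhoods in CPM per kb (log axis), library 1 as circles and library 2 as squares, with genes in chromosomal order and distances not to scale. In the panel from Ccl5 to Ccl4, Ccl5 and Ccl3 are higher in library 1 while Ccl9 and Ccl6 are higher in library 2.

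Receptor genes were set beside the ligands. Of 24 classical and atypical chemokine receptor genes, 11 were above background in both libraries (45.8%, with 47.4% of protein-coding genes). Ccr7, which carries Langerhans cells to lymph nodes and also stands in the mature dendritic cell list, led with 190.4 and 32.1 CPM per kb. Its log2 ratio was -3.07. Its ligands Ccl19 and Ccl21a were within background. Ccl21b, a near copy of Ccl21a, was above it in both libraries with 3 rows summed over the exon length of a single row. Cxcr4 had 96.2 and 20.0 CPM, the atypical receptor gene Ccrl2 88.2 and 52.6 CPM, Ccr1 60.6 and 22.9 CPM, and Cx3cr1 42.3 and 22.0 CPM. These 5 receptor genes were lower in library 2 by at least 2-fold under TMM. In all, 8 of the 24 receptor genes were so, with 12.6% of all genes. Ccr3 and Cxcr1 were at least 2-fold higher, with 24.5% of all genes. Both lay within background in library 1, at 0.385 and 0.499 CPM per kb. In library 2 they passed at 1.80 and 1.95 CPM per kb, near its threshold of 1.58. With total counts as the scale Ccrl2 and Cx3cr1 stayed lower in library 2 but by less than 2-fold. Receptor genes above background with lower levels included Ccr1l1, Cxcr2, Cxcr5, Ackr2 and Ackr3, from 1.79 to 7.22 CPM in library 1.

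The receptor genes of several leading ligands had lower levels. Ccr4, the receptor for Ccl22, had 2.72 and 3.31 CPM, Cxcr6, for Cxcl16, had 5.61 and 2.72 CPM, and Ccr2 had 50.2 and 7.07 CPM. These 3 passed background in library 1 alone. Ccr6, the receptor for Ccl20, had 0.729 and 2.06 CPM and passed in neither. Cxcr2, which also marks neutrophils, was above background at 6.05 and 8.68 CPM with a log2 ratio of 0.02.

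**Figure D5:**
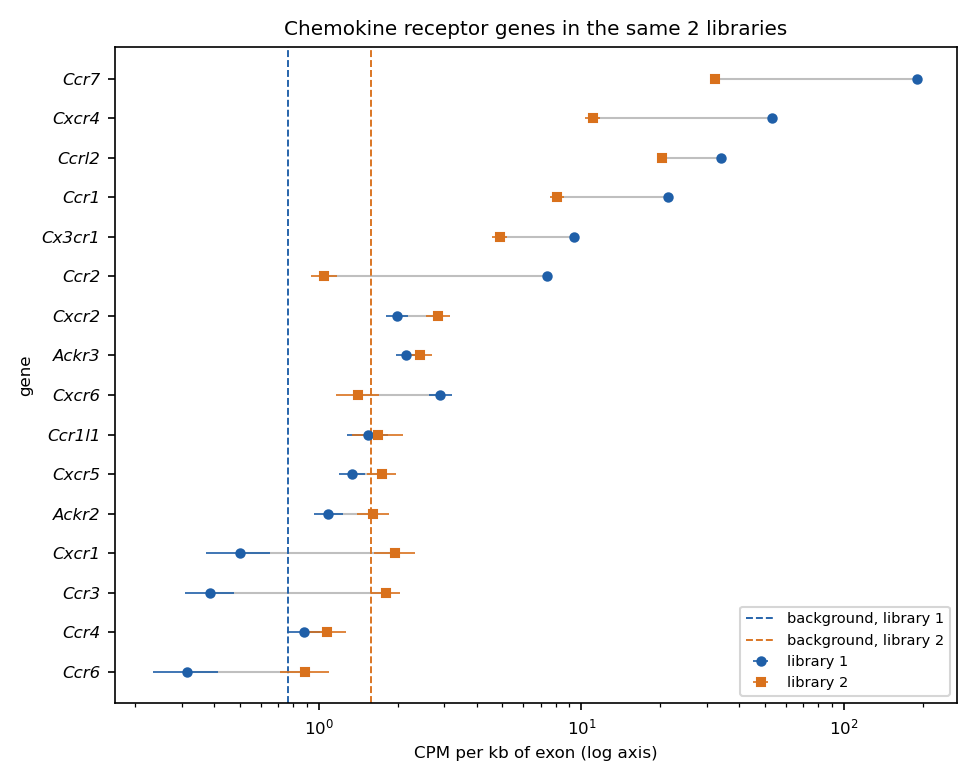
Level of the chemokine receptor genes named in the text in CPM per kb (log axis) in both libraries, with exact Poisson 95% intervals and the olfactory receptor background as dashed lines. Ccr7 is highest in both, and Ccr7, Cxcr4, Ccrl2, Ccr1, Cx3cr1 and Ccr2 are all lower in library 2.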

How the data were processed

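Total RNA libraries of 2 samples were sequenced. The authors deposited 1 table of raw gene counts under Ensembl identifiers, whole numbers without normalization, in which each library has a column. The column that carries a number 2 is called library 2 and the other library 1. Both were taken by group, since their link to single samples is not certain. Per the submitters' processing notes, Trimmomatic, HISAT2, SAMtools and StringTie were used with GRCm38. For versions, settings, annotation release and strand use, what was done is not given in the sources used here. A last row without identifier, holding the column totals, was left out.

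Symbols, union exon lengths and positions came from GENCODE M21 for 55227 of 55487 rows. Rows sharing a symbol were summed, and the 37 members came from 39 rows. Levels per kb of such genes divide the summed counts by the exon length of a single row. CPM used library totals, with exact Poisson 95% intervals. Log2 ratios used TMM from edgeR 4.0.16 (R 4.3.3) with a prior count of 1 and exact binomial intervals. Size factors from DESeq2 1.42.0, total counts, Cd207 scaling, other filters, a prior count of 5 and background subtraction were alternatives. With 1 group of 2 there are no residual degrees of freedom within a contrast, so no gene-wise test was run. Counting error was small except for rare genes. Where 0 was counted, up to 3 counts remain possible, or 0.0429 CPM in library 1 and 0.0710 in library 2. Scripts were tested on simulated data.

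Every member is named: those above background in at least 1 library with both values, the rest by name and range, with receptor genes above background in both libraries. Values of 1 receptor gene are not reported here. Receptor genes named for a leading ligand, and Ccr3 and Cxcr1, were added after their values were seen. The members, gene lists and the olfactory receptor background were chosen with earlier results of these data known.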

Additional observations from a re-analysis of the deposited data

How the results depend on the processing

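The count of members above background in both libraries, 22, lay between 20 and 27 under the 99th percentile, CPM without length, at least 1 CPM, either library alone and, chosen after seeing the data, the length of the longest protein-coding transcript. For receptor genes the count was 11, with 8 under the 99th percentile, 13 by CPM without length, 14 by the longest transcript, 21 with at least 1 CPM in both libraries and between 13 and 18 with 1 library left out. The counts of members at least 2-fold lower and higher in library 2, 9 and 9 under TMM, were 5 and 14 with total counts and 4 and 15 with scaling to Cd207, the sorted marker. They were 10 and 8 with DESeq2 size factors. Over all genes, 4.65% were lower and 41.6% higher with scaling to Cd207, and 14.9% and 22.3% with DESeq2 size factors. The share of higher among called members was 50% under TMM, 73.7% with total counts and 79.0% with scaling to Cd207, and over all genes it was 66.1%, 87.6% and 90.0%. Cxcl2, Ccl12, Ccl17 and Ccl11 were no longer 2-fold lower with total counts, and Ccl7, Cxcl1, Cxcl10, Pf4 and Ccl24 passed 2-fold higher. The log2 ratios of Ccl28 and Cxcl9 changed from 0.02 and 0.13 to -3.60 and -1.26 with the median background subtracted; both genes lie within background. The share of the 3 leading ligands lay between 48.9% and 76.0% by library and was 44.7% per kb. No paired analysis was possible because the libraries form a single group. Depth limits Cxcl15, Ccl8, Ppbp, Ccl11 and Xcl1, whose counting intervals are wide, and all 9 members within background in both libraries.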
